A study of Homo sapiens with 12 samples.

Results

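MEG3, MEG8, DLK1, H19, IGF2, CDKN1C, PEG3, PEG10, GNAS and NNAT are imprinted genes of several loci. They were taken as the rows of the deposited expression table that carry these symbols, and all 10 were found among its 27514 genes. The set was chosen by the change of MEG3 in siHAND2 against siCtrl, where MEG3 was among the largest rises, so values of that comparison are given as a description, with no test. Expression was measured by RNA sequencing of total RNA from IMR32, a human neuroblastoma cell line, 72 h after small interfering RNAs (siRNAs) were introduced by Nucleofector electroporation. Each of 4 groups comprised 3 samples, which were given a control siRNA (labelled siCTR, here siCtrl), an siRNA against MYCN (siMYCN_2, here siMYCN), an siRNA against HAND2 (siHAND2_3, here siHAND2), or both (siM2+siH2_3, here the combined knockdown). All groups were electroporated and kept in the same medium, RPMI-1640 with fetal calf serum. The labels name 1 siRNA per target and 1 cell line. They do not say whether the replicates were separate cultures, so p-values measure the spread between these samples, which may be technical.

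Imprinted genes are expressed mainly from the allele of 1 parent, according to DNA methylation laid down in the germ line at control regions. On chromosome 14 the maternal allele gives the long noncoding RNAs MEG3 and MEG8 and the paternal allele gives the protein-coding genes DLK1 and RTL1. On chromosome 11, H19 and CDKN1C are maternally and IGF2 paternally expressed. PEG3, PEG10 and NNAT are paternally expressed, and GNAS gives transcripts of maternal, paternal and biallelic origin. The values here sum both alleles, so allelic origin was not measured. MYCN and HAND2 are basic helix-loop-helix transcription factors. Such factors bind the E-box, a 6-base sequence of the form CANNTG. MYCN favours CACGTG, and HAND2 is known for binding CATCTG, which reads CAGATG on the other strand.

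Promoter sequences are shown for MEG3 and H19, the members that differed most between groups and that moved in opposite directions when HAND2 was reduced. Each window holds 250 bases before and 50 bases after an annotated start, 5′ to 3′ on the gene's strand, from RefSeq on GRCh38.p14. Capitals mark CANNTG. The MEG3 window is chr14:100825858-100826157 on the + strand, and the H19 window is chr11:2001217-2001516 on the - strand.
MEG3: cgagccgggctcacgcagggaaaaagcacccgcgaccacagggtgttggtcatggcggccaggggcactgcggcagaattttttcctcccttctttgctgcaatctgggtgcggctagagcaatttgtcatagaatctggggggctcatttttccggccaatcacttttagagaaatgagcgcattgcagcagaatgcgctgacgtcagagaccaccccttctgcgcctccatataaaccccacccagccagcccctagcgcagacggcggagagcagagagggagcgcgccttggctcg
H19: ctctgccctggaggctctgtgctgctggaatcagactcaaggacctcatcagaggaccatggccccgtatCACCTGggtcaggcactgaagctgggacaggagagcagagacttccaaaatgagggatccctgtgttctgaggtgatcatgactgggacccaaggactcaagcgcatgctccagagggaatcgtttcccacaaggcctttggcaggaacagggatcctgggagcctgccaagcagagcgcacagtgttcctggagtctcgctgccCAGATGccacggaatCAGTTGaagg
The MEG3 window held 0 matches to CANNTG, as did the windows of the other MEG3 starts in the table. In the H19 window there were 3 matches. The first was CACCTG at position -180 relative to the start base, which counts as 1, the next was CAGATG at position 26, and the last was CAGTTG at position 41. No CACGTG was found in either. Searched in the same way on both strands, CANNTG occurred in 68.7% of the 35116 promoter windows of the same length, CACGTG in 7.26%, and CATCTG or CAGATG in 14.7%. CANNTG includes both other motifs. A match describes the letters of the window and was not tested as a binding site. Windows were found for 3 of the 10 genes, the third being GNAS. The GNAS windows held 0 to 4 matches to CANNTG. The window with 4 included 1 CATCTG or CAGATG, as in H19, and another window held 1 CACGTG.

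Values are CPM, read counts scaled to the size of each library. MYCN averaged 67.5% of its siCtrl level after its own siRNA, 84.1% in siHAND2 and 47.7% when both were given. HAND2 averaged 26.0% of its siCtrl level in siHAND2, 30.7% in the combined knockdown and 136% in siMYCN. The libraries held an estimated 31.6 to 64.1 M reads. The share falling in the listed genes was 64.3 to 65.8% in siCtrl and 44.3 to 58.4% in the combined knockdown, and replicate 3 of the combined knockdown was the lowest. Because of such shifts, the main changes are also given after median-ratio rescaling, in which the typical gene of mean CPM 5 or more is brought to the same level in every sample. In the combined knockdown against siMYCN, the median log2 change of all genes was -0.28 as deposited and 0.04 after rescaling. Without HAND2 itself, the summed CPM of 10 neuroblastoma identity markers was 549 to 574 for siCtrl, 723 to 749 for siMYCN, 653 to 708 for siHAND2 and 504 to 784 where both siRNAs were given. That of 10 mesenchymal markers, of which 6 passed the filter on low values, was 332 to 353, 293 to 340, 160 to 189 and 104 to 172 in the same order. Most of the mesenchymal sum was VIM, at a mean of 237 CPM in siCtrl and 120 CPM in siHAND2, and TWIST1, at 58.8 and 32.1 CPM. COL1A1 averaged 7.90 and 1.41 CPM, PRRX1 stood at the constant that marks no reads, and COL1A2 stayed under 0.16 CPM. The part of these shifts in the results that follow was not tested. In bulk RNA, fewer cells of a type and less RNA per cell cannot be told apart.

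The HAND2 siRNA was followed by higher MEG3, MEG8 and DLK1 and lower H19 in cells that also received the MYCN siRNA. Without the MYCN siRNA the directions were the same, but that is the comparison that chose the set and is a description only. The MYCN siRNA alone was followed by higher H19, MEG3, CDKN1C, MEG8 and GNAS and lower PEG10 and PEG3. A gene is termed called where limma's Benjamini-Hochberg adjusted p over all genes tested was under 0.05, on the scale of log2(CPM + 1). Of the 10 genes, 9 passed the filter of a mean CPM of at least 1, and IGF2 did not. In siMYCN against siCtrl, 7 of the 9 were called, 5 higher and 2 lower, where 33.7% of all genes tested were called, 17.4% higher and 16.3% lower. The combined knockdown against siMYCN measures the HAND2 siRNA in samples outside the comparison that chose the set. The genes were still chosen with earlier results of these data known, and the fit takes its spread from all 12 samples. In the combined knockdown against siMYCN all 9 were called, 4 higher and 5 lower. The background was 58.9% called, with 8.92% higher and 50% lower. After rescaling 6 of the 9 were called, 4 higher and 2 lower, where 56.6% of all genes were called, 30.1% higher and 26.5% lower. The plot of CPM by sample shows all 10 genes.

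**Figure D1:**
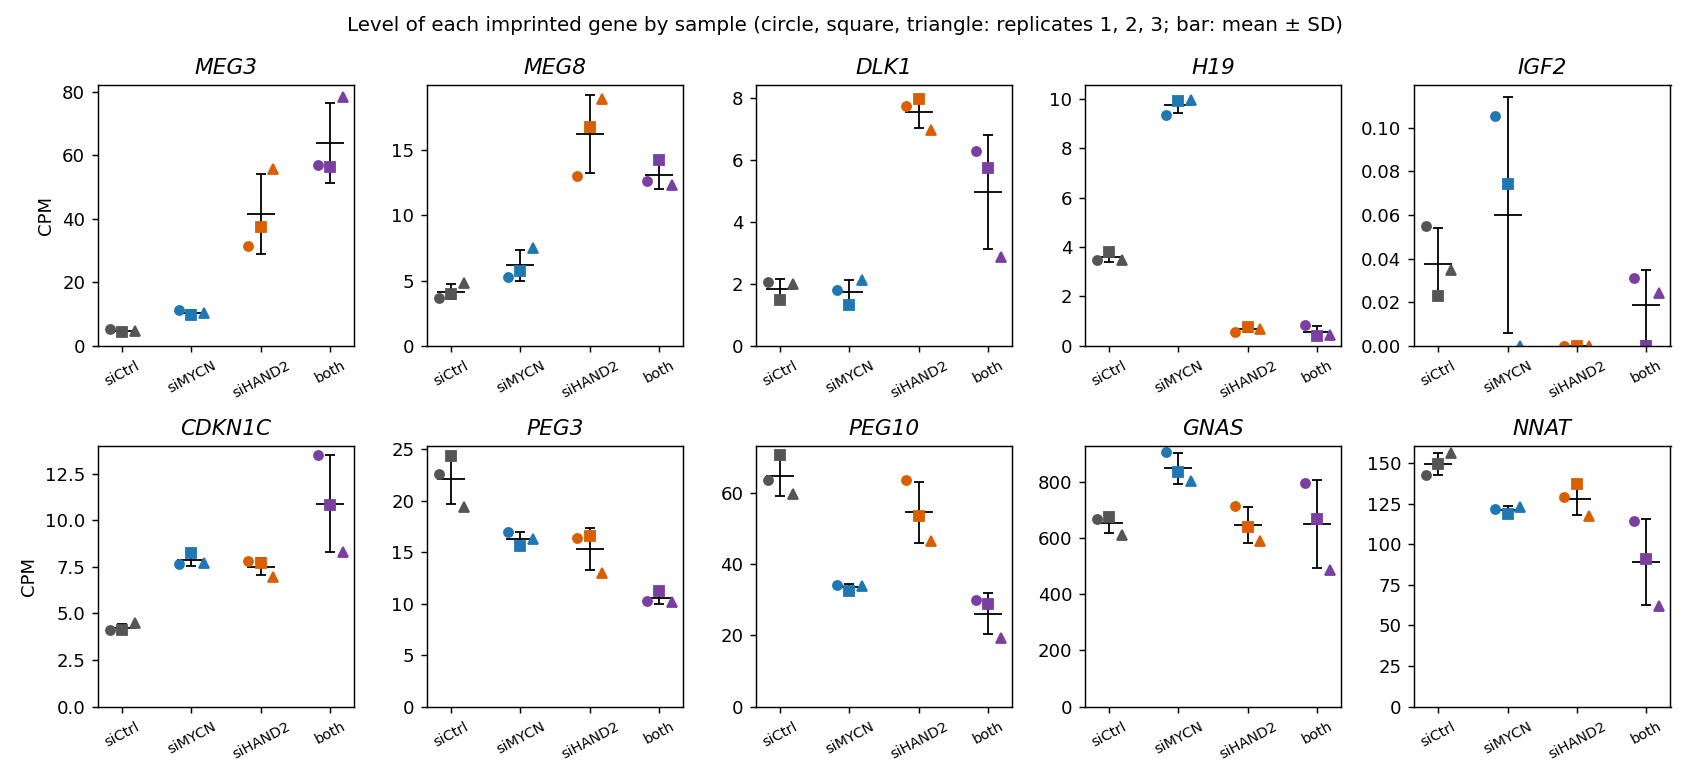
CPM of each of the 10 imprinted genes in the 12 samples, by group ("both" is the combined knockdown), with the mean and SD of the 3 samples as bars and each vertical axis starting at 0. MEG3 is lowest in siCtrl and highest in the combined knockdown, H19 is highest in siMYCN, and IGF2 stays under 0.11 CPM.

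MEG3 is a long noncoding RNA that restrains growth when put back into tumour cells that have lost it. It is listed at chr14:101292445-101327361 on the + strand (hg19). In siCtrl, MEG3 stood at 5.20, 4.47 and 4.51 CPM. It stood at 11.4, 9.66 and 10.2 CPM in siMYCN, at 31.3, 37.6 and 55.8 CPM in siHAND2, and at 56.9, 56.4 and 78.5 CPM in the combined knockdown. Each group lay wholly above the one before it, though the lowest combined sample cleared the highest siHAND2 sample only narrowly. The group means were 4.73 ± 0.41, 10.4 ± 0.877, 41.5 ± 12.7 and 63.9 ± 12.6 CPM (SD, n = 3), or 2.20, 8.78 and 13.5 times siCtrl for the knockdowns.

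On the log2(CPM + 1) scale the MEG3 change after the HAND2 siRNA alone was 2.85, the third largest rise among the 12680 genes tested, which is the value that chose the set. Among cells that also received the MYCN siRNA it was 2.49 ± 0.15 (SE; limma, adjusted p = 1.1e-12), and 2.83 after rescaling. It was the seventh largest rise among the same 12680 genes. After the MYCN siRNA alone MEG3 rose by 0.99 ± 0.15 (SE; limma, adjusted p = 2e-05), with the same value after rescaling. Relative to siHAND2, MEG3 in the combined knockdown rose by 0.63 (limma, adjusted p = 0.002). After rescaling that change was 0.83 (adjusted p = 0.0053) but the samples of the 2 groups overlapped, and without the filter on low values the call was lost (adjusted p = 0.076). The samples of siHAND2 are shared with the comparison that chose the set, as are those of siCtrl in siMYCN against siCtrl.

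MEG8, a long noncoding RNA whose introns carry small nucleolar RNAs, lies downstream of MEG3 at chr14:101355986-101465451 on the + strand. It overlaps 39 listed small RNA genes on the same strand, and each of them averaged under 0.05 CPM. It stood at 3.66, 3.99 and 4.83 CPM in siCtrl, at 5.25, 5.76 and 7.48 CPM in siMYCN, at 13.0, 16.7 and 18.9 CPM in siHAND2, and at 12.6, 14.2 and 12.3 CPM in the combined knockdown. Both groups with the HAND2 siRNA lay above both groups without it, and they overlapped each other. Means were 4.16 ± 0.600, 6.16 ± 1.17, 16.2 ± 2.98 and 13.1 ± 1.02 CPM (SD, n = 3). The change in the combined knockdown against siMYCN was 0.98 ± 0.13 on the log2(CPM + 1) scale (SE; limma, adjusted p = 1.1e-06), and 1.30 after rescaling. The rise after the MYCN siRNA alone was 0.47 (limma, adjusted p = 0.009). It was no longer called without siCtrl replicate 1 (adjusted p = 0.055), without siMYCN replicate 3 (adjusted p = 0.09) or without the filter (adjusted p = 0.1). The difference between the combined knockdown and siHAND2 was -0.28 (limma, adjusted p = 0.098).

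DLK1, a membrane protein related to the NOTCH ligands that is made by immature neural crest and adrenal cells, is listed at chr14:101193202-101204562 on the + strand. Its level was 2.07, 1.48 and 2.00 CPM in siCtrl, 1.79, 1.33 and 2.12 CPM in siMYCN, 7.75, 7.98 and 6.98 CPM in siHAND2, and 6.31, 5.75 and 2.88 CPM in the combined knockdown. The siCtrl and siMYCN samples overlapped, and all samples with the HAND2 siRNA lay above them. Replicate 3 of the combined knockdown was well below its other 2 samples. Means were 1.85 ± 0.320, 1.75 ± 0.394, 7.57 ± 0.524 and 4.98 ± 1.84 CPM (SD, n = 3). DLK1 rose in the combined knockdown against siMYCN by 1.08 ± 0.17 on the log2(CPM + 1) scale (SE; limma, adjusted p = 7.6e-06), by 1.34 after rescaling and by 1.36 without that replicate. After the MYCN siRNA alone the difference was -0.06 (limma, adjusted p = 0.83). DLK1 was lower in the combined knockdown than in siHAND2, at -0.57 (limma, adjusted p = 0.0089), and without that replicate the difference was -0.28 (adjusted p = 0.093).

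RTL1 and MEG9 belong to the same chromosome 14 domain and come from a list of 43 other imprinted genes. RTL1, a protein derived from a retrotransposon, is listed at chr14:101346992-101351185 on the - strand, between MEG3 and MEG8. It stood at 0.854, 1.51 and 1.80 CPM in siCtrl, 2.11, 2.45 and 2.82 CPM in siMYCN, 7.69, 8.06 and 9.50 CPM in siHAND2, and 8.60, 7.46 and 7.31 CPM in the combined knockdown. Its order of groups was that of MEG8. RTL1 rose by 0.55 after the MYCN siRNA (limma, adjusted p = 0.0028) and by 1.35 in the combined knockdown against siMYCN (limma, adjusted p = 7.6e-09). The noncoding RNA MEG9 was below the filter, at 0.110 to 0.209 CPM in siCtrl, 0.238 to 0.471 CPM in siMYCN, 0.633 to 1.17 CPM in siHAND2 and 0.829 to 1.15 CPM in the combined knockdown. Whether counting used strand is not given in the sources used here, so reads of RTL1 and of maternal transcripts that cross it on the other strand cannot be told apart.

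**Figure D2:**
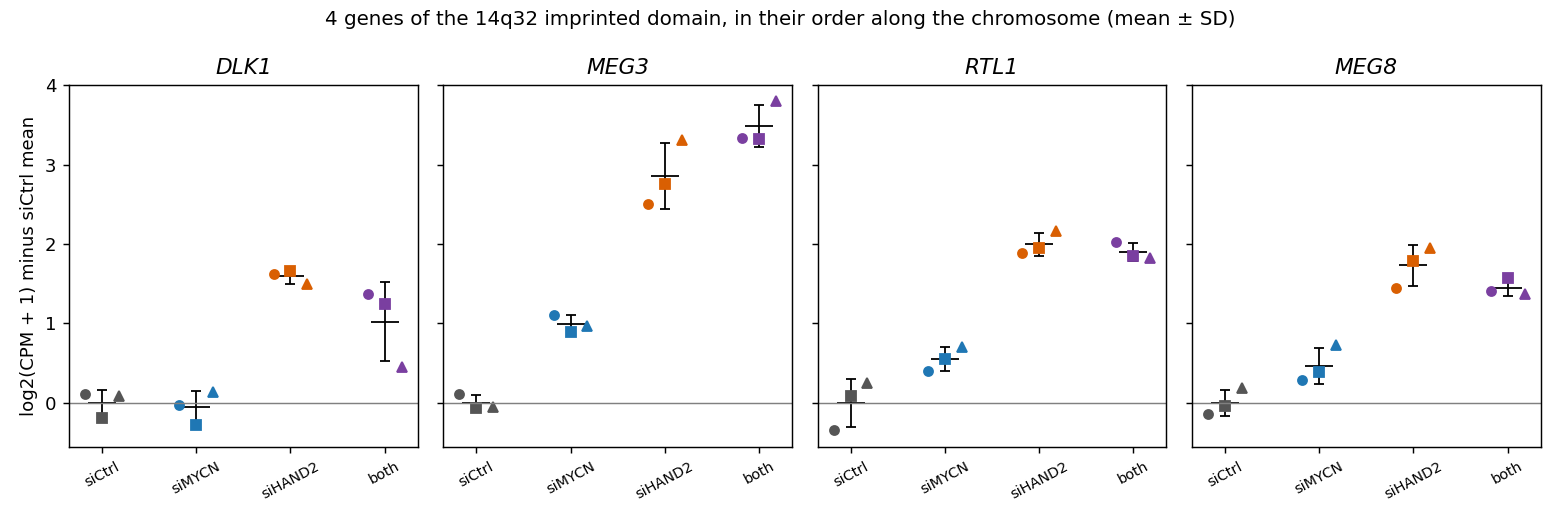
Change of log2(CPM + 1) from the siCtrl mean in each sample for DLK1, MEG3, RTL1 and MEG8, in chromosomal order, with the mean and SD of 3 samples as bars. In siMYCN the points of MEG3, RTL1 and MEG8 lie above their siCtrl points and those of DLK1 overlap them, and in siHAND2 and the combined knockdown all lie above.

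Within this domain, MEG3 did not keep a fixed proportion to MEG8 or DLK1 across the groups. Ratios of CPM within a sample were computed after the values had been seen and are given without a test, and since the genes differ in length they are not ratios of molecules. The ratio of MEG3 to MEG8 was 1.42, 1.12 and 0.935 for siCtrl, 2.17, 1.68 and 1.36 for siMYCN, 2.40, 2.24 and 2.95 for siHAND2, and 4.50, 3.96 and 6.37 for the combined knockdown. It was higher in every combined sample than in any sample of another group, while siCtrl and siMYCN overlapped. The ratio of MEG3 to DLK1 was 2.52, 3.02 and 2.25 for siCtrl, 6.34, 7.24 and 4.81 for siMYCN, 4.04, 4.71 and 7.99 for siHAND2, and 9.01, 9.80 and 27.3 for the combined knockdown. All siCtrl samples were lowest, siMYCN and siHAND2 overlapped, and the highest value came from the combined replicate with low DLK1. The ratio of RTL1 to MEG8 averaged 0.327 for siCtrl, 0.401 for siMYCN, 0.524 for siHAND2 and 0.600 where both siRNAs were given. That of MEG8 to DLK1 averaged 2.29, 3.59, 2.16 and 2.92 in the same order. Its samples overlapped among siCtrl, siHAND2 and the combined knockdown, while siMYCN lay above siCtrl and siHAND2.

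**Figure D3:**
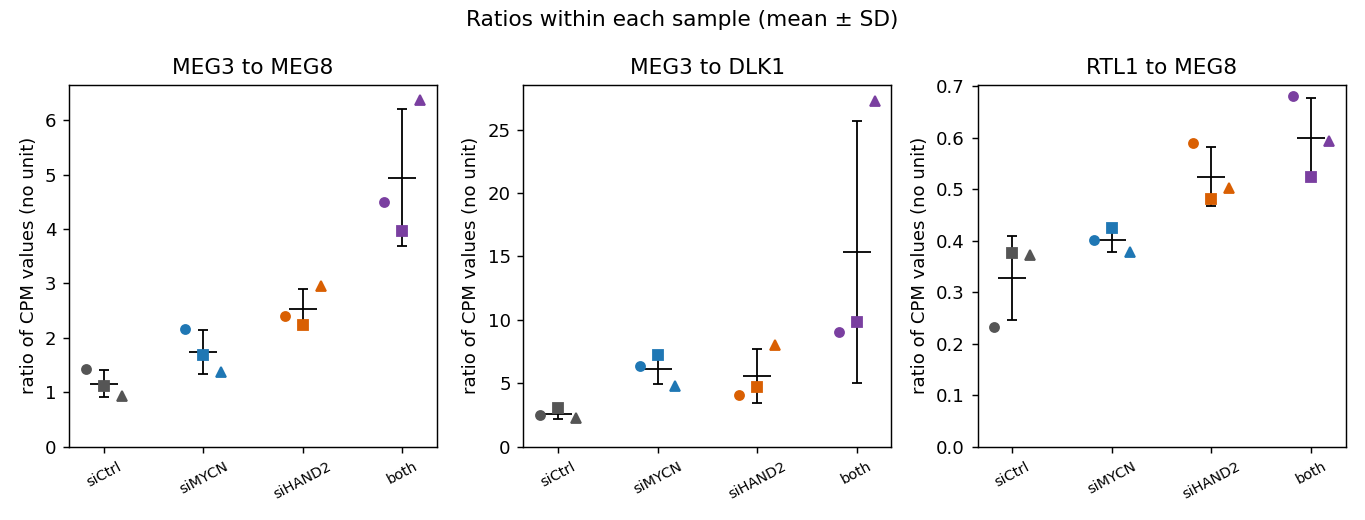
Ratio of CPM values within each sample for MEG3 to MEG8, MEG3 to DLK1 and RTL1 to MEG8, by group, with the mean and SD of 3 samples as bars and axes starting at 0. The MEG3 to MEG8 ratio is between 3.96 and 6.37 in the combined knockdown and at most 2.95 elsewhere.

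Genes whose profiles lay nearest to that of MEG3 were sought among the 10192 genes averaging 5 CPM or more, by the mean absolute difference in log2 change from the siCtrl mean over the 9 knockdown samples. They were NPPA (0.371), which encodes atrial natriuretic peptide, RPRM (0.405), a cell cycle arrest gene, NHLH1 (0.409), a neuronal helix-loop-helix factor, SDK2 (0.421), an adhesion protein of synapses, and CNTN2 (0.425), an axonal adhesion protein. The listed intervals of NHLH1 and CNTN2 lie in that of SRGAP2D, whose mean was 7.24 CPM. The 9 samples include siHAND2, whose comparison with siCtrl chose the set. That the genes nearest to MEG3 also rose there follows from how they were picked. Nearest to DLK1 were SOX5 (0.182), a transcription factor, MBNL3 (0.209), a splicing regulator, TMPRSS15 (0.217), a protease, DLL3 (0.218), an inhibitory NOTCH ligand, and SV2C (0.224), a synaptic vesicle protein. DLL3 stood at 25.1, 22.9 and 30.7 CPM in siCtrl, 30.3, 26.9 and 32.3 CPM in siMYCN, 68.0, 69.2 and 63.2 CPM in siHAND2, and 70.0, 59.0 and 44.7 CPM in the combined knockdown. As for DLK1, siCtrl and siMYCN overlapped, and both groups with the HAND2 siRNA lay above them. The third combined replicate was the lowest of its group, also as for DLK1. DLL3 was picked for its nearness to DLK1 in these same samples, so this likeness follows from the choice. Nearness was measured on the log2(CPM + 1) scale, which compresses the low DLK1 values. As a fold of siCtrl, DLK1 averaged 4.09 in siHAND2, above SOX5 (3.46), TMPRSS15 (3.36), MBNL3 (2.80), SV2C (2.74) and DLL3 (2.55). In the combined knockdown DLK1 averaged 2.69, below SOX5 (2.80) and above the others.

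H19, a long noncoding RNA that is abundant in fetal tissues and carries a microRNA, is listed at chr11:2016406-2022697 on the - strand. It stood at 3.49, 3.82 and 3.47 CPM in siCtrl and at 9.37, 9.93 and 9.96 CPM in siMYCN. With the HAND2 siRNA it stood at 0.570, 0.752 and 0.667 CPM, and in the combined knockdown at 0.842, 0.389 and 0.433 CPM. The siMYCN samples were highest, the siCtrl samples came next, and the 2 groups with the HAND2 siRNA were lowest and overlapped. Means were 3.59 ± 0.193, 9.75 ± 0.331, 0.663 ± 0.0914 and 0.554 ± 0.250 CPM (SD, n = 3), which puts siMYCN at 271%, siHAND2 at 18.5% and the combined knockdown at 15.4% of siCtrl.

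H19 rose by 1.23 ± 0.12 on the log2(CPM + 1) scale after the MYCN siRNA (SE; limma, adjusted p = 3.2e-08). It fell in the combined knockdown against siMYCN by 2.80 ± 0.12 (SE; limma, adjusted p = 2e-15), the twelfth largest fall among the 12680 genes tested, and the change was -2.62 after rescaling. Against siHAND2 the combined knockdown differed by -0.11 (limma, adjusted p = 0.51). So a higher H19 level after the MYCN siRNA was measured in cells without the HAND2 siRNA, and the difference among cells with it did not pass the test. The groups with the HAND2 siRNA rest on an estimated 15 to 54 H19 reads per sample, against 127 to 423 in the others. The scale understates such low values: with a pseudocount of 0.1 in place of 1 the change in the combined knockdown against siMYCN was -3.98. HOTS, on the other strand of H19, averaged 0.083 CPM.

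IGF2, the fetal growth factor next to H19, is listed at chr11:2150342-2170834 on the - strand. Its level was between 0.0001 CPM, the constant that marks no reads, and 0.105 CPM, which corresponds to 0 to 4 estimated reads. A count of 3 reads was worth 0.0468 to 0.0949 CPM in these libraries, so a difference between groups was not detectable at this depth. All 3 siHAND2 samples stood at the constant.

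CDKN1C encodes p57, a CIP/KIP inhibitor of cyclin-dependent kinases, and is listed at chr11:2904448-2906996 on the - strand. It stood at 4.13, 4.11 and 4.46 CPM in siCtrl, 7.68, 8.25 and 7.72 CPM in siMYCN, 7.82, 7.71 and 6.98 CPM in siHAND2, and 13.5, 10.8 and 8.31 CPM in the combined knockdown. The siCtrl samples were lowest, the single knockdowns overlapped, and the combined samples were highest but spread widely. CDKN1C rose by 0.76 on the log2(CPM + 1) scale after the MYCN siRNA (limma, adjusted p = 4.7e-05). It rose by 0.40 in the combined knockdown against siMYCN (limma, adjusted p = 0.0097), by 0.71 after rescaling, and by 0.46 against siHAND2 (limma, adjusted p = 0.0054). The rise against siMYCN was not called without combined replicate 1 (0.24, adjusted p = 0.052) or without the filter (adjusted p = 0.063).

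PEG10, derived from a retrotransposon and located at chr7:94285637-94299007 on the + strand, stood at 63.8, 70.7 and 59.7 CPM in siCtrl and at 34.1, 32.4 and 33.9 CPM in siMYCN. It stood at 63.6, 53.5 and 46.6 CPM in siHAND2 and at 30.0, 28.8 and 19.4 CPM in the combined knockdown. Both groups with the MYCN siRNA lay below both groups without it, and siHAND2 overlapped siCtrl. PEG10 fell by 0.93 after the MYCN siRNA (limma, adjusted p = 1.2e-05) and by 1.05 in the combined knockdown against siHAND2 (limma, adjusted p = 2.4e-06), which was -0.86 after rescaling. The fall of 0.37 in the combined knockdown against siMYCN (limma, adjusted p = 0.024) was -0.03 after rescaling (adjusted p = 0.77) and -0.18 without combined replicate 3 (adjusted p = 0.16).

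PEG3, a zinc finger protein at chr19:57321445-57352095 on the - strand, stood at 22.6, 24.3 and 19.4 CPM in siCtrl, 17.0, 15.6 and 16.3 CPM in siMYCN, 16.4, 16.6 and 13.0 CPM in siHAND2, and 10.3, 11.2 and 10.1 CPM in the combined knockdown. The siCtrl samples were highest, the single knockdowns overlapped, and the combined samples were lowest. PEG3 fell by 0.42 after the MYCN siRNA (limma, adjusted p = 0.0069), although not past the threshold without siCtrl replicate 2 (adjusted p = 0.052). It fell by 0.58 in the combined knockdown against siMYCN (limma, adjusted p = 1.4e-04), which was -0.26 after rescaling (adjusted p = 0.047), and by 0.49 against siHAND2 (limma, adjusted p = 0.0014). ZIM2, which overlaps PEG3 on the same strand, averaged 0.558 CPM.

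NNAT encodes neuronatin, a small membrane protein of developing brain, and lies at chr20:36149608-36152091 on the + strand inside BLCAP, which is on the other strand and averaged 22.7 CPM. NNAT stood at 142, 149 and 156 CPM in siCtrl, 121, 119 and 123 CPM in siMYCN, 129, 137 and 118 CPM in siHAND2, and 114, 91.2 and 61.7 CPM in the combined knockdown. The siCtrl samples were highest and the combined samples lowest. After the MYCN siRNA the difference of -0.30 did not pass the test in the fit to all groups (limma, adjusted p = 0.13), but passed it after rescaling (adjusted p = 0.016). NNAT fell by 0.48 in the combined knockdown against siMYCN (limma, adjusted p = 0.007), which was -0.14 after rescaling (adjusted p = 0.2). Without combined replicate 3 that difference was -0.24 (adjusted p = 0.037).

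GNAS encodes the stimulatory G protein alpha subunit and is listed at chr20:57414773-57486252 on the + strand. It stood at 669, 675 and 610 CPM in siCtrl, 906, 833 and 800 CPM in siMYCN, 714, 638 and 588 CPM in siHAND2, and 796, 666 and 487 CPM in the combined knockdown. The siMYCN samples were highest and the other 3 groups overlapped. GNAS rose by 0.38 after the MYCN siRNA (limma, adjusted p = 0.04; adjusted p = 0.0011 after rescaling), but 7 of 12 fits that each left out 1 sample lost the call, with adjusted p up to 0.14. The fall of 0.41 in the combined knockdown against siMYCN (limma, adjusted p = 0.015) was -0.06 after rescaling (adjusted p = 0.55) and -0.22 without combined replicate 3 (adjusted p = 0.088). Rescaling turned the combined knockdown against siCtrl from -0.03 (limma, adjusted p = 0.85) to 0.33 (adjusted p = 0.002).

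**Figure D4:**
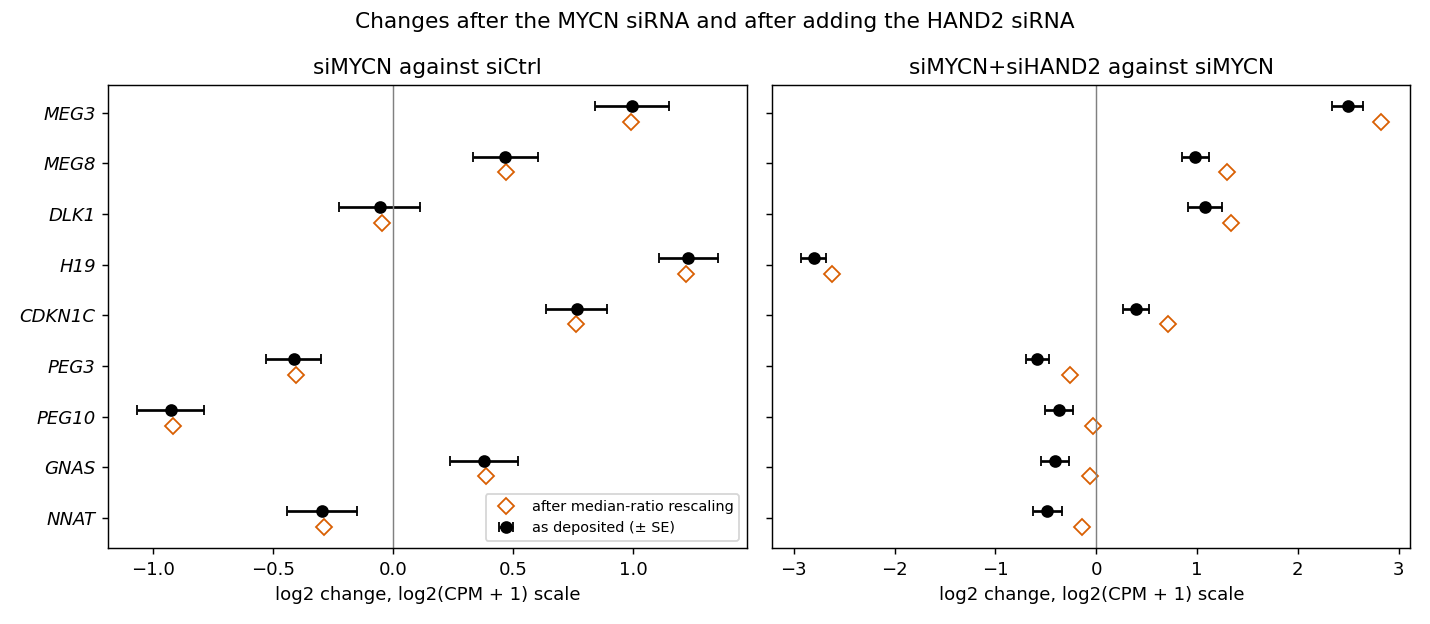
Change on the log2(CPM + 1) scale for the 9 genes tested, in siMYCN against siCtrl and in the combined knockdown against siMYCN. Filled circles with SE bars are the deposited scale and open diamonds the values after median-ratio rescaling. MEG3, MEG8, DLK1, H19, CDKN1C and PEG3 keep their side of 0 at both scales in the combined knockdown, and the values of PEG10, GNAS and NNAT move close to 0.

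In the comparisons that complete the design, 8 of the 9 genes were called in the combined knockdown against siCtrl, 4 higher and 4 lower, where 67.4% of all genes were called, 17.4% higher and 50.1% lower. The changes there were 3.49 for MEG3, 1.45 for MEG8, 1.02 for DLK1, 1.16 for CDKN1C, -1.57 for H19, -1.30 for PEG10, -1.0 for PEG3 and -0.78 for NNAT, against siCtrl samples that the choice of genes also used. Against siHAND2 there were 6, of which MEG3 and CDKN1C were higher and DLK1, PEG3, PEG10 and NNAT were lower, against a background of 40.3%, with 8.75% higher and 31.5% lower. For siHAND2 against siCtrl, which chose the set, no test is given. The change there was 1.73 for MEG8, 1.59 for DLK1, 0.70 for CDKN1C, -1.47 for H19, -0.51 for PEG3, -0.25 for PEG10, -0.22 for NNAT and -0.01 for GNAS. After rescaling the GNAS value was 0.15. The change after the HAND2 siRNA in cells that also received the MYCN siRNA was larger in size for H19 (-2.80 beside -1.47). As deposited, it was also larger in size for PEG3, PEG10, NNAT and GNAS. It was smaller for MEG8 (0.98 beside 1.73), MEG3 (2.49 beside 2.85), DLK1 (1.08 beside 1.59) and CDKN1C (0.40 beside 0.70). H19 started from 3.59 CPM in siCtrl and 9.75 CPM in siMYCN, and averaged 0.663 CPM in siHAND2 and 0.554 CPM in the combined knockdown. Those differences contain the comparison that chose the set, so no test of them is read.

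Of the 43 other imprinted genes, 42 were listed and 20 passed the filter. Of these, 5 were higher and 2 lower after the MYCN siRNA, where 17.4% of all genes were higher and 16.3% lower. Their median log2 change was 0.15 against 0.01 for all genes. With both siRNAs against siMYCN 5 were higher and 4 lower, where 8.92% of all genes were higher and 50% lower, with a median of 0.04 against -0.28 for all genes. After rescaling 13 were higher and 1 lower, where 30.1% of all genes were higher and 26.5% lower, with a median of 0.37 against 0.04. KCNQ1OT1, the paternally expressed antisense RNA near CDKN1C, averaged 29.3 CPM for siCtrl, 34.8 for siMYCN, 58.7 for siHAND2 and 83.6 where both siRNAs were given. Its change was 1.20 in the combined knockdown against siMYCN (limma, adjusted p = 6.5e-06), with all 3 combined samples above the siMYCN samples. PPP1R9A, an actin-binding protein gene near PEG10, averaged 1.68, 2.18, 2.97 and 4.86 CPM in the same order and rose by 0.88 (limma, adjusted p = 2.3e-06). NAP1L5, a paternally expressed nucleosome assembly gene that overlaps HERC3 on the other strand, averaged 11.5, 20.5, 17.9 and 23.2 CPM. It rose by 0.78 after the MYCN siRNA (limma, adjusted p = 5.8e-05), and its change of 0.14 against siMYCN in the combined knockdown was not called (adjusted p = 0.37) except after rescaling (0.47, adjusted p = 6.4e-04).

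**Figure D5:**
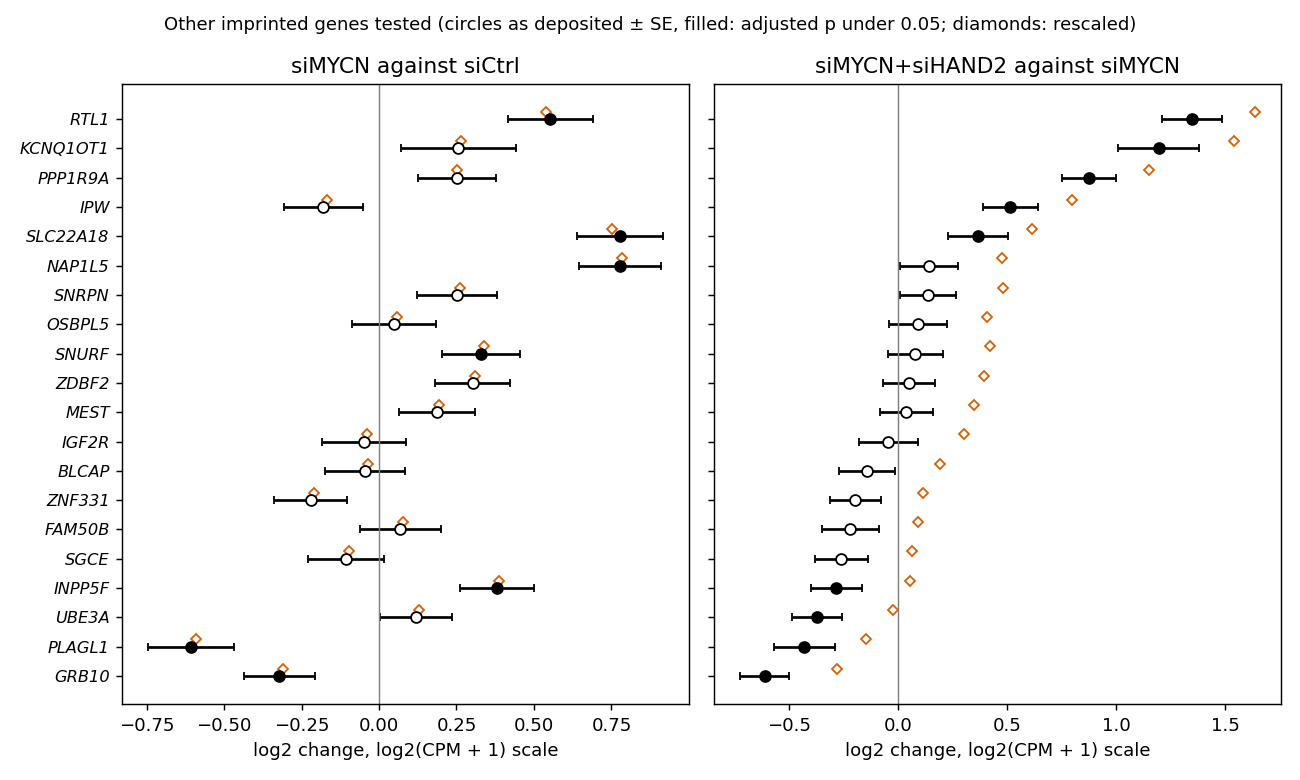
Change on the log2(CPM + 1) scale for the 20 other imprinted genes that passed the filter, in siMYCN against siCtrl and in the combined knockdown against siMYCN. Circles with SE bars are the deposited scale (filled where the adjusted p was under 0.05) and diamonds the rescaled values, with RTL1 and KCNQ1OT1 at the top of the second comparison.

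Genes of imprint maintenance and of DNA methylation more widely were followed in a list of 15, of which 11 passed the filter. In siMYCN against siCtrl 1 was higher and 1 lower, where 17.4% of all genes were higher and 16.3% lower. In the combined knockdown against siMYCN 0 were higher and 4 of the 11 lower, a smaller share than the 50% of all genes that were lower. The median in the second comparison was -0.08 against -0.28 for all genes. After rescaling 7 were higher and 4 lower, where 30.1% of all genes were higher and 26.5% lower. The 7 higher were ZNF445, DNMT3A, DNMT3B, TET1, TET2, TET3 and SETDB1. Among them, the rescaled mean of TET2 was 39.5 CPM in siMYCN and 59.0 CPM in the combined knockdown, and that of DNMT3B 12.6 and 18.6 CPM. The 4 lower are the genes described next, which were picked for the size of their change. UHRF1, which brings the maintenance methyltransferase to replicating DNA, averaged 180 CPM for siCtrl, 182 for siMYCN, 110 for siHAND2 and 52.3 for the combined knockdown. UHRF1 fell by 1.80 in the combined knockdown against siMYCN (limma, adjusted p = 1.3e-11), which was -1.46 after rescaling. DNMT1, that methyltransferase, averaged 151, 114, 102 and 59.4 CPM in the same order and fell by 0.94 (limma, adjusted p = 2.8e-07), which was -0.59 after rescaling. TRIM28, a corepressor held at imprints, fell by 0.66 (limma, adjusted p = 2.6e-04), which was -0.31 after rescaling. CTCF, the insulator protein that binds the H19 control region on the maternal allele, fell by 0.62 (limma, adjusted p = 1.8e-04), which was -0.28 after rescaling. DNA methylation itself was not measured.

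In the NOTCH pathway, to which DLK1 is related, 12 of 19 genes passed the filter. After the MYCN siRNA 1 was higher and 3 lower, where 17.4% of all genes were higher and 16.3% lower. In the combined knockdown against siMYCN 2 were higher and 6 lower, with a median of -0.24 against -0.28 for all genes. The lower share of 6 in 12 matched the 50% of all genes. After rescaling 4 were higher and 3 lower, near the 30.1% and 26.5% of all genes. The ligand gene JAG1 averaged 2.89 CPM for siCtrl, 9.96 for siMYCN, 7.94 for siHAND2 and 13.1 where both siRNAs were given, and rose by 1.50 after the MYCN siRNA (limma, adjusted p = 2.3e-08). DLL3 rose by 0.92 in the combined knockdown against siMYCN (limma, adjusted p = 4.3e-06). HES6, a neural basic helix-loop-helix gene, fell by 0.75 after the MYCN siRNA (limma, adjusted p = 2.3e-05) and by 0.78 in the combined knockdown against siMYCN (limma, adjusted p = 4.5e-06), which was -0.46 after rescaling. DLK2, the closest relative of DLK1, stood at 2.45 to 2.58 CPM in siCtrl, 2.22 to 2.96 CPM in siMYCN, 0.886 to 1.33 CPM in siHAND2 and 1.02 to 1.54 CPM in the combined knockdown. DLK2 fell by 0.68 against siMYCN when both siRNAs were given (limma, adjusted p = 8.4e-05), which was -0.46 after rescaling, where DLK1 rose. It overlaps ABCC10 on the other strand.

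In the IGF pathway 11 of 16 genes passed the filter. In siMYCN against siCtrl 2 were higher and 4 lower, where 17.4% of all genes were higher and 16.3% lower. In the combined knockdown against siMYCN 1 was higher and 6 lower, with a median of -0.28, as for all genes. The 6 lower of 11 were near the 50% of all genes that were lower. After rescaling 4 were higher and 3 lower, where 30.1% of all genes were higher and 26.5% lower. IGFBP4, a binding protein that holds IGFs in the extracellular space, averaged 31.7, 14.2, 8.18 and 3.99 CPM over siCtrl, siMYCN, siHAND2 and the combined knockdown. It fell by 1.10 after the MYCN siRNA (limma, adjusted p = 4.2e-06) and by 1.60 in the combined knockdown against siMYCN (limma, adjusted p = 2.4e-09). IRS1, a docking protein of the receptor, fell by 0.71 in the second comparison (limma, adjusted p = 5.8e-05), which was -0.39 after rescaling. IGFBP2, another binding protein, fell by 0.56 after the MYCN siRNA (limma, adjusted p = 0.0041), and IGF2BP1, an RNA-binding protein named for its binding to IGF2 transcripts, by 0.43 (limma, adjusted p = 0.04). Their falls of 0.37 and 0.52 in the combined knockdown against siMYCN (limma, adjusted p = 0.034 and 0.0072) were -0.03 and -0.17 after rescaling (adjusted p = 0.81 and 0.4).

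Among the other CIP/KIP inhibitors and the kinases and cyclins they bind, 9 of 10 genes passed the filter. The MYCN siRNA alone was followed by 2 higher and 2 lower, where 17.4% of all genes were higher and 16.3% lower. In the combined knockdown against siMYCN 0 were higher and 8 lower, where 50% of all genes were lower, with a median of -0.84 against -0.28 for all genes. After rescaling 7 were lower, where 26.5% of all genes were. The kinase gene CDK2 fell by 1.64 (limma, adjusted p = 3.3e-11) and its cyclin CCNE2 by 1.48 (limma, adjusted p = 1.5e-11). The kinase genes CDK4 and CDK6 fell by 0.98 and 0.97 (limma, adjusted p = 5.6e-07 and 5e-07), which were -0.64 and -0.62 after rescaling. The inhibitors of this list, CDKN1A and CDKN1B, were lower on average in the combined knockdown than in siMYCN as deposited, but not after rescaling. The rescaled mean of CDKN1A was 10.1 CPM in siMYCN and 11.8 CPM in the combined knockdown. That of CDKN1B was 102 and 105 CPM in the same order. CDKN1C, the imprinted inhibitor, was higher in the combined knockdown against siMYCN at both scales, as given above.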

How the data were processed

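The authors deposited CPM values for 27514 genes in 12 samples. Per the submitters' processing notes, STAR 2.5.1 and Partek were used with hg19 (GRCh37). The counting tool, strand and annotation are not given in the sources used here. Every deposited value includes an added constant of 0.0001. The CPM columns do not reach the full total over the listed genes, so the denominator takes in other reads.

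Depth was estimated from the step between low CPM values, taken as 1 read. Within 0.05 read, 88.7 to 90.6% of values under 20 reads and 80.2 to 81.7% of those from 20 to 200 reads came out whole, so no count test was run. Libraries of a group differed by more than sampling noise, so each counted as 1 sample.

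Values were tested as log2(CPM + 1), with a pseudocount of 1 and for 12680 genes whose mean CPM was 1 or more. The model had the 4 groups and all samples (limma 3.58.1 with a mean-variance trend, R 4.3.3, 8 residual degrees of freedom, two-sided). Adjusted p-values are Benjamini-Hochberg over all genes tested. The scripts were tested on simulated data. Same-numbered siCtrl and siMYCN samples deviated together (correlations 0.440, 0.147 and 0.308), and a block for the replicate number changed no call of these genes in that comparison. The members and lists were chosen with earlier results of these data known. From each list the 4 genes with the largest absolute change in either siMYCN against siCtrl or the combined knockdown against siMYCN are named. Alternatives were another pseudocount, other filters, fits without the trend or with only the groups compared, the block, rescaling to the median ratio (each sample over its median ratio to the gene-wise geometric mean) or to the sum over listed genes, and leaving out each sample.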

Additional observations from a re-analysis of the deposited data

How the results depend on the processing

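Log values near 1 CPM are compressed by the pseudocount, 3 samples a group limit the precision, and the scaling sets the direction of small changes in the combined knockdown. The interaction named below is the effect of the HAND2 siRNA with the MYCN siRNA minus that without it. It contains the comparison that chose the set, so its counts and values are given for completeness and nothing is read from them. Without the filter on low values, 5 of these genes were called in the combined knockdown against siMYCN and 2 against siHAND2. Of all 27514 genes, 6830 and 3802 were called there. In the interaction 1 of these genes and 88 of all genes were called without the filter. The interaction had 1 of these genes called, in place of 2, with a mean CPM of at least 5 and with either rescaling. The same held with the setting added after seeing the data, rescaling without combined replicate 3. At a mean CPM of at least 5, H19 (mean 3.64 CPM) and DLK1 (4.04 CPM) were not tested, and 428 of all genes were called. All genes called in the interaction (508) became 1282 with the replicate block, 780 with rescaling, 796 scaled to the sum over listed genes, and 1264 with rescaling and block. In siMYCN against siCtrl the 4273 became 6963 with only the groups compared, 6474 with rescaling and block, and 6517 in the added setting. For GNAS, rescaling gave 0.15 in siHAND2 against siCtrl, 0.33 in the combined knockdown against siCtrl and 0.18 against siHAND2, also with the block, and the listed sum gave 0.12, 0.32 and 0.20. The interaction became 0.10 and 0.063 for PEG3 and 0.058 and 0.025 for PEG10 under these scalings. The added setting gave GNAS 0.15, 0.41, 0.26 and, against siMYCN, 0.019, PEG10 0.048 against siMYCN, and interactions of 0.012 for PEG3, 0.14 for PEG10 and 0.051 for NNAT. Over the 12 fits that each left out 1 sample, the change of DLK1 in siMYCN against siCtrl ran from -0.15 to 0.056, and that of GNAS from -0.087 to 0.053 in siHAND2 against siCtrl, from -0.19 to 0.16 in the combined knockdown against siCtrl and from -0.18 to 0.18 against siHAND2. The interaction ran from -0.19 to 0.0085 for PEG3 and from -0.23 to 0.069 for PEG10, with 1 to 6 of these genes and 261 to 4445 of all genes called, the most without combined replicate 1. Outside siMYCN against siCtrl the numbers were not taken as pairs, which does not mean that the samples were unpaired. Over all groups 11 of 18 correlations were over 0.1, and 8 of 12 samples correlated best with their own number. The correlations were 0.330, 0.137 and 0.316 for siMYCN with siHAND2, and -0.097, -0.192 and 0.365 for siHAND2 with the combined knockdown. With the replicate block the MEG8 difference between the combined knockdown and siHAND2 passed the threshold (-0.28, adjusted p = 0.04), and no other call of these genes changed. The cause of these changes was not tested.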
